A study of Danio rerio with 10 samples.

Results

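Heat shock proteins and chaperonins were followed in RNA from adult wild-type zebrafish testis kept in culture for 3 days. Genes were taken by name: names beginning with hsp and a, b, d, e, h or a digit, with cct and a digit, or with dnaja, dnajb or dnajc, leaving out hspg2 and hspbap1, which are named for other reasons. The reference name table held 96 such genes, of which 85 were analysed here, and 75 of the 85 reached at least 1 CPM (read counts scaled to a common library size) in at least 5 of the 10 libraries, out of 19099 genes that did so and 33737 in the tables. The 75 kept genes were placed by a list of sites drawn up by gene name, which may be incomplete. There were 41 in cytosol and nucleus, 15 in the endoplasmic reticulum (ER), 8 in the mitochondrion, 10 elsewhere and 1, dnaja, with no assigned site.

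Both groups were wild-type testis tissue cultured with the androgen 11KT (11-ketotestosterone, the main androgen of male fish). The 5 control libraries had 11KT alone, and the 5 Amh libraries had 11KT and anti-Müllerian hormone, a Sertoli cell factor. The series addresses the action of Amh, beside that of the growth factor Igf3, on the differentiation of spermatogonia. Labels call the 5 libraries of a group biological replicates and number them 1 to 5 in each group. Whole testis holds germ cells, Sertoli cells, Leydig cells and others, so that fewer cells of a type and less RNA per cell cannot be told apart in any value given here.

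Chaperones bind proteins that are unfolded or being made and help them fold. Hsp70 proteins, with the DNAJ proteins that stimulate their ATPase and the Hsp110 proteins that exchange their nucleotide, act first on many clients, Hsp90 completes the folding of kinases and hormone receptors, and small heat shock proteins hold unfolded clients until others refold them. The CCT chaperonin is a ring of different subunits that folds actin and tubulin. The ER and the mitochondrion each have their own set, with HSP90B1 and its DNAJ partners in the ER, and HSPA9, HSPD1 (Hsp60) and HSPE1 (Hsp10) in the mitochondrion. A few of the genes, hsp70l among them, are strongly induced by heat through the heat shock factor Hsf1, while others such as HSPA8 and HSP90AB1 are made in cells at all times. Spermatogenesis uses chaperones heavily, and in mice the germ cell Hsp70 named HSPA2 is needed in spermatocytes. Whether the zebrafish gene given that name is its counterpart was not checked.

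The control libraries held 8455226 to 11934679 counts and the Amh libraries 10974579 to 15448069, with the Amh library 1.2 to 1.3 times as deep as the control of its own number. A count of 3 corresponded to 0.194 to 0.355 CPM, and counting error is only part of the spread between libraries. The 75 kept genes took 1.5% ± 0.179 (SD, n = 5) of the counts in the controls and 1.54% ± 0.146 in the Amh libraries. The tissue was represented by its germ cell markers, which summed to 4210 to 5041 CPM in the controls and 3940 to 4648 in the Amh libraries. For hsp70l, hsp70.3 and HSP90AA1 control 5 stood far above the other controls and Amh 2 and Amh 5 above the other Amh libraries. Other heat shock genes differed. dnajb1b was highest at number 3 in both groups, and Amh 5 was the lowest Amh library for HSPB1. Values without control 5, Amh 2 or Amh 5 are given beside the results for hsp70l, hsp70.3 and HSP90AA1. Of the 10 genes below the level, hspa12a.2 had no count in any library, and the others were DNAJB5, HSPA12A, hspa12a.1, HSPB3, hspb15, hspb9, hspb9l, DNAJC22 and DNAJC5B. The genes just inside it were 1 of the DNAJC5 copies, with 1 CPM or more in 7 libraries, and HSPB2 and 1 of the DNAJC16 copies, with 8 each, and those just outside were HSPA12A with 3, DNAJC5B with 2 and DNAJB5 with 1. The main ER Hsp70, HSPA5, and dnajb1a, dnaja3b, HSPB7, HSPBP1, DNAJC14, DNAJC17, DNAJC21 and 3 further copies of cct2, DNAJA2 and DNAJC11 were not analysed here.

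No chaperone gene passed the test between Amh and control. Of the 75 kept genes, 0 had an adjusted p under 0.05 in edgeR's quasi-likelihood test, beside 0 of all 19420 genes tested, a background of 0%. At an unadjusted p under 0.05 there was 1, HSPA12B, against a background of 0.675%. The numbers pair the libraries (same-numbered libraries deviated together), and with the replicate number as a block 0 of the 75 passed, beside 4 of all genes (0.0206%). Unadjusted, the paired fit gave 9 of the 75, or 12%, against a background of 8.72%. Of these 9, 3 were higher with Amh (hsp70.1, HSPB1 and HSPD1, 4% against a background of 3.84%) and 6 were lower (DNAJC24, HSPA12B, hspb11, DNAJC19, DNAJB13 and DNAJC27, 8% against 4.88%). By DESeq2 and limma-voom, each with and without the block, 0 of the 75 passed as well. No kept gene had groups that did not overlap, against 0.139% of all genes (0.0618% with Amh above and 0.0772% with Amh below every control).

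Fold changes of the chaperones lay close around 0. The unpaired log2 fold change of Amh against control was above 0 for 36 of the 75 kept genes, or 48%, against 47.1% of all genes, and in the paired fit for 39 of the 75, against 48.8%. It was within 0.1 of 0 for 47 of them and beyond 0.3 for 6, limits at which all genes were not counted. The median over the 75 was -0.002, with quartiles of -0.06 and 0.06, beside -0.01 over all genes, for which the quartiles were -0.12 and 0.10. These were not adjusted for the level of a gene. The standard error had a median of 0.182 over the 75 genes in the unpaired fit and 0.0889 in the paired fit.

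By their unpaired medians the compartments lay close together. Cytosolic and nuclear chaperones had a median of 0.03 in log2 fold change (24 of 41 genes above 0). The median was -0.01 for ER chaperones (7 of 15 above 0) and -0.02 for mitochondrial chaperones (3 of 8 above 0). Each of these medians changed sign from pair to pair. For the cytosol it was 0.01, 0.20, 0.04, 0.02 and -0.12 in pairs 1 to 5, and for the ER 0.06, -0.10, -0.02, 0.05 and -0.07. For the mitochondrion it was 0.19, -0.07, 0.07, 0.10 and -0.09. The spread of a median over the 5 pairs (SD 0.113, 0.0723 and 0.12) was larger than any difference between the compartments.

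**Figure D1:**
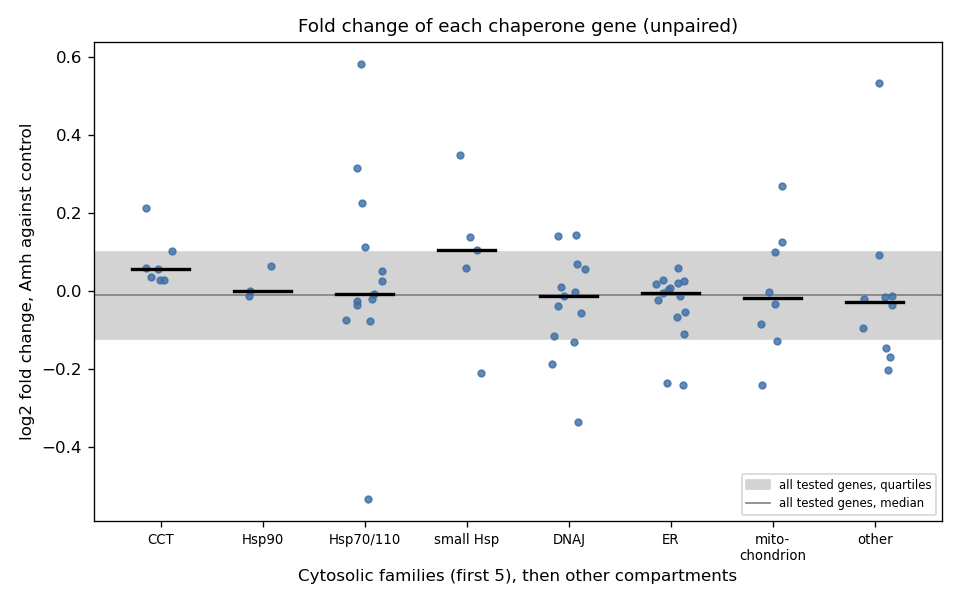
Unpaired log2 fold change of Amh against control (vertical axis) for each kept chaperone gene but dnaja (points), by cytosolic family and then by other compartment, with the median of each group as a black bar and the quartiles and median of all tested genes as a grey band and line. The 7 CCT subunits all lie above 0, between 0.03 and 0.21, and the medians of the compartments lie within the band of all genes.

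Among the Hsp70 genes of the cytosol, the constitutive HSPA8 (ENSDARG00000068992) was read at 2721, 3332, 2436, 3071 and 3259 CPM in controls 1 to 5 and at 2775, 3671, 2473, 3229 and 3191 CPM in Amh libraries 1 to 5. Its groups overlapped over nearly their whole range, and the log2 fold change was 0.05 (SE 0.168). The second gene given the name HSPA8 (ENSDARG00000037403) was read at 175, 192, 140.1, 191 and 306 CPM in the controls and 171, 228, 144, 175 and 236 CPM with Amh, highest in control 5. For the Hsp110 gene HSPH1, a nucleotide exchange factor of Hsp70, the controls gave 23.2, 41.9, 40.1, 50.3 and 58.3 CPM and the Amh libraries 16.2, 53.9, 47.5, 50.3 and 40.8 CPM. Both groups had their lowest HSPH1 value at number 1. Over the 13 cytosolic Hsp70 and Hsp110 genes the median log2 fold change was -0.01, with 6 above 0, and the values ran from -0.53 for HSPA12B to 0.58 for hsp70.1.

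The atypical Hsp70 gene HSPA12B, known in vertebrates for its expression in blood vessel lining cells, had the smallest unadjusted p of the 75 in the unpaired test. It was read at 9.87, 7.50, 6.03, 8.97 and 7.23 CPM in the controls and 5.92, 4.60, 4.28, 7.34 and 5.17 CPM in the Amh libraries. Every Amh library lay below the control of its number, while the groups overlapped, since Amh 4 exceeded controls 3 and 5. The log2 fold change was -0.53 (SE 0.219) unpaired and -0.54 (SE 0.158) paired, with an adjusted p of 0.371 in the paired fit. No markers of blood vessel lining cells were listed. Of the 5 tested erythrocyte markers 0 were above 0, at a median of -0.31 in log2 fold change. The median was lower still for Leydig cell markers (-0.48) and for markers of macrophages and leukocytes (-0.36). It was -0.09 for germ cell markers and 0.30 for Sertoli cell markers. The part of any of these cells in the HSPA12B values was not tested.

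Of the cytosolic Hsp90 genes, HSP90AB1, the constitutive form, had the narrowest range of the 75 kept genes. It was read at 5015, 4637, 4879, 4594 and 4928 CPM in the controls and 4835, 4919, 4658, 4661 and 4775 CPM with Amh. The range over the 10 libraries was 1.09-fold, and the log2 fold change was -0.01 (SE 0.145). That SE exceeded the whole log2 range of 0.127, since the fit shares variance between genes. The inducible form HSP90AA1 was read at 560.1, 484, 549, 554 and 1033 CPM in the controls and 504, 727, 586, 605 and 758 CPM with Amh, with a log2 fold change of 0.00 (SE 0.213). Control 5 was far above the other controls, and the means of the groups were nearly equal (636 ± 224 and 636 ± 105 CPM, SD, n = 5 each). The unpaired log2 fold change was 0.25 without control 5, -0.05 without Amh 2 and -0.07 without Amh 5. In the paired fit over all libraries it was 0.04 (SE 0.110).

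The CCT chaperonin subunits showed small values of 1 sign. All 7 kept subunits (cct2, CCT3, CCT4, CCT5, CCT6B, CCT7 and CCT8) had a log2 fold change above 0, from 0.03 to 0.21 with a median of 0.06, and none of the 7 passed the test. CCT4, with the largest value after cct2, was read at 422, 452, 397, 509 and 492 CPM in the controls and 452, 548, 433, 518 and 487 CPM with Amh, and its log2 fold change was 0.10 (SE 0.124). The controls and Amh libraries overlapped, and 4 of 5 pairs were higher with Amh. The median of the 7 subunits was 0.10, 0.25, 0.04, 0.02 and -0.07 in pairs 1 to 5, so the common sign was not shared by pair 5. Without control 3 only 4 of the 7 were above 0, and the subunits belong to 1 complex and are read in the same libraries, so they are not independent counts. The remaining subunit gene TCP1, outside the naming rule, had a log2 fold change of 0.13 (SE 0.119).

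For cct2 the pairs disagreed. Its values were 59.2, 27.5, 42.2, 46.7 and 63.7 CPM in the controls and 67.7, 63.7, 41.4, 47.7 and 57.0 CPM in the Amh libraries, and pair 2 alone gave a log2 ratio of 1.21, with control 2 the lowest of the 10 libraries. The log2 fold change over all libraries was 0.21 (SE 0.217), and 0.07 without control 2, so the upper end of the range of the subunits rests on that library. The mean of cct2 over the 10 libraries was 51.7 CPM, beside 261 CPM for CCT8, the lowest of the other kept subunits. A further cct2 copy was not analysed here, so whether this one is the main cct2 gene cannot be told.

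Cytosolic DNAJ genes, the partners of Hsp70, lay at a median of -0.01 in log2 fold change, 5 of 13 being above 0. DNAJC24, which takes part in making the diphthamide residue of elongation factor 2 and is named after its values were seen, had the smallest p of the 75 in the paired fit. Its values were 46.5, 68.1, 94.8, 47.0 and 45.2 CPM in the controls and 34.9, 48.2, 77.4, 35.7 and 42.5 CPM with Amh. All 5 Amh libraries lay below their own control, while the groups overlapped widely. The paired log2 fold change was -0.34 (SE 0.0805), with an adjusted p of 0.287 in the paired edgeR fit. That adjusted p was 0.0626 without pair 2, where 229 of all genes passed, and 0.531 without pair 5. Without pairs 1, 3 and 4 it was no lower than 0.845, 0.489 and 0.58, the smallest of any kept gene. Leaving out any pair but pair 2, 0 or 1 of all genes passed. The DnaJ proteins dnaja1 (21.9 ± 5.72 CPM in the controls and 19.2 ± 2.90 CPM with Amh, SD, n = 5) and dnajb1b, main partners of Hsp70 in the cytosol, had log2 fold changes of -0.19 (SE 0.187) and -0.01 (SE 0.309). Without control 5, the highest library, dnaja1 had -0.03, and dnajb1b had 0.21 without control 3 and -0.18 without control 4, all unpaired. In the paired fit dnaja1 had -0.17 (SE 0.103) and dnajb1b 0.07 (SE 0.0971).

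Small heat shock proteins lay at a median of 0.10 in log2 fold change, 4 of 5 kept genes being above 0. HSPB1 (Hsp27), which binds unfolded proteins and actin filaments, was read at 23.8, 21.0, 14.3, 20.1 and 16.9 CPM in the controls and 27.0, 34.0, 18.3, 27.0 and 16.2 CPM with Amh. Amh 2 was the highest library and control 3 the lowest, and 4 of 5 pairs were higher with Amh. Its log2 fold change was 0.35 (SE 0.215) unpaired and 0.32 (SE 0.113) paired (adjusted p = 0.445 paired), and 0.20 without Amh 2. HSPB8, the partner of the co-chaperone BAG3 in selective autophagy, was read at 177, 219, 184, 308 and 167 CPM in the controls and 179, 205, 229.9, 334 and 185 CPM with Amh. The highest HSPB8 value of each group was at number 4. The gene given the name hspb11 was read at 57.2, 65.1, 82.2, 57.8 and 54.0 CPM in the controls and 50.6, 43.8, 72.6, 56.6 and 49.7 CPM with Amh, lower in 5 of 5 pairs, with a paired log2 fold change of -0.21 (SE 0.0848) and an adjusted p of 0.498. The symbol is also used for the human intraflagellar transport protein IFT25, so its place in this family is uncertain, and the other 4 kept genes of the family were those above 0. HSPB8 and hspb11 are named after their values were seen.

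In the ER, the Hsp90 form HSP90B1 (Grp94), which folds secreted and membrane proteins, was read at 383, 306, 289, 324 and 325 CPM in the controls and 367, 323, 290.4, 366 and 311 CPM with Amh. The groups covered nearly the same range, and the log2 fold change was 0.03 (SE 0.123). The DNAJ partner DNAJB11, which delivers nascent proteins, had 71.9, 77.3, 74.5, 60.7 and 66.0 CPM in the controls and 81.5, 57.9, 71.1, 66.3 and 57.5 CPM with Amh and a log2 fold change of -0.07 (SE 0.129). DNAJB9 is induced in the unfolded protein response. Its copy ENSDARG00000052072 had 27.0, 16.4, 18.3, 10.4 and 20.8 CPM in the controls and 26.5, 15.3, 18.1, 10.8 and 18.8 CPM with Amh, so that both libraries of a number lay close together and number 1 was highest in each group. The other copy of DNAJB9 had a log2 fold change of -0.01 (SE 0.208). The inhibitors of the kinase PERK, dnajc3a and dnajc3b, had 0.06 (SE 0.122) and -0.01 (SE 0.171), and DNAJC10, which reduces disulfides of proteins bound for degradation, had 0.03 (SE 0.128). The 2 ER genes with the smallest unpaired p were 1 copy each of DNAJB12 and DNAJC16, at 5.06 ± 1.79 against 4.26 ± 0.696 CPM and 1.61 ± 0.529 against 1.39 ± 0.803 CPM (control against Amh, SD, n = 5), with log2 fold changes of -0.24 (SE 0.276) and -0.24 (SE 0.437).

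In the mitochondrion the chaperonin pair lay above 0 in log2 fold change and the DNAJ genes below 0 (the highest at -0.002). None of them passed the test. HSPD1, the Hsp60 ring that folds imported proteins, was read at 184, 158, 185, 186 and 235 CPM in the controls and 226, 209, 212, 207 and 288 CPM in the Amh libraries. Amh exceeded control in each of the 5 pairs, with log2 ratios of 0.30, 0.40, 0.20, 0.15 and 0.29, while control 5 lay above Amh 1 to Amh 4, so that the groups overlapped. The mean was 189 ± 27.8 CPM (SD, n = 5) in the controls and 228 ± 33.9 CPM with Amh, and the log2 fold change was 0.27 (SE 0.139) unpaired, 0.17 to 0.36 when 1 library was left out, and 0.27 (SE 0.0697) paired. Its adjusted p was 0.307 in the paired edgeR fit and 0.134 in the paired DESeq2 fit, so the difference did not pass over all genes. Besides HSPD1, DNAJA2 (named after its values were seen) was the only other kept gene higher in 5 of 5 pairs, 2.67% of the 75 against 4.65% of all genes. Lower in 5 of 5 pairs were 5 kept genes (DNAJC24, HSPA12B, hspb11, DNAJC19 and DNAJB13), 6.67% against 5.09%.

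HSPE1, the Hsp10 lid of the Hsp60 ring and the neighbour of hspd1 in the GRCz12tu annotation, was read at 115, 169, 148, 138 and 188 CPM in the controls and 137, 156, 163, 179 and 191 CPM with Amh. It was higher in 4 of 5 pairs, lower in pair 2, with a log2 fold change of 0.13 (SE 0.149) unpaired. HSPA9, the mitochondrial Hsp70 (mortalin), had 164, 173, 117, 149 and 212 CPM in the controls and 199, 169, 132, 168 and 204 CPM with Amh and a log2 fold change of 0.10 (SE 0.169), which was 0.00 without control 3. Of the 5 DNAJ genes listed as mitochondrial 0 had a log2 fold change above 0. The values ran from -0.24 to -0.002, with a median of -0.09. The median of the 5 was 0.05 in pair 4 and below 0 in the other pairs. DNAJA3 had -0.03 (SE 0.335) unpaired, and -0.23 to 0.17 when 1 library was left out. DNAJC19, a part of the motor that pulls proteins through the inner membrane with HSPA9, had 63.6, 83.0, 62.6, 81.9 and 48.3 CPM in the controls and 51.2, 67.3, 58.6, 69.8 and 40.5 CPM with Amh. Each Amh library was below its control, and the paired log2 fold change was -0.24 (SE 0.0731) with an adjusted p of 0.376. Whether the chaperonin pair and the DNAJ genes differ in their response was not tested.

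**Figure D2:**
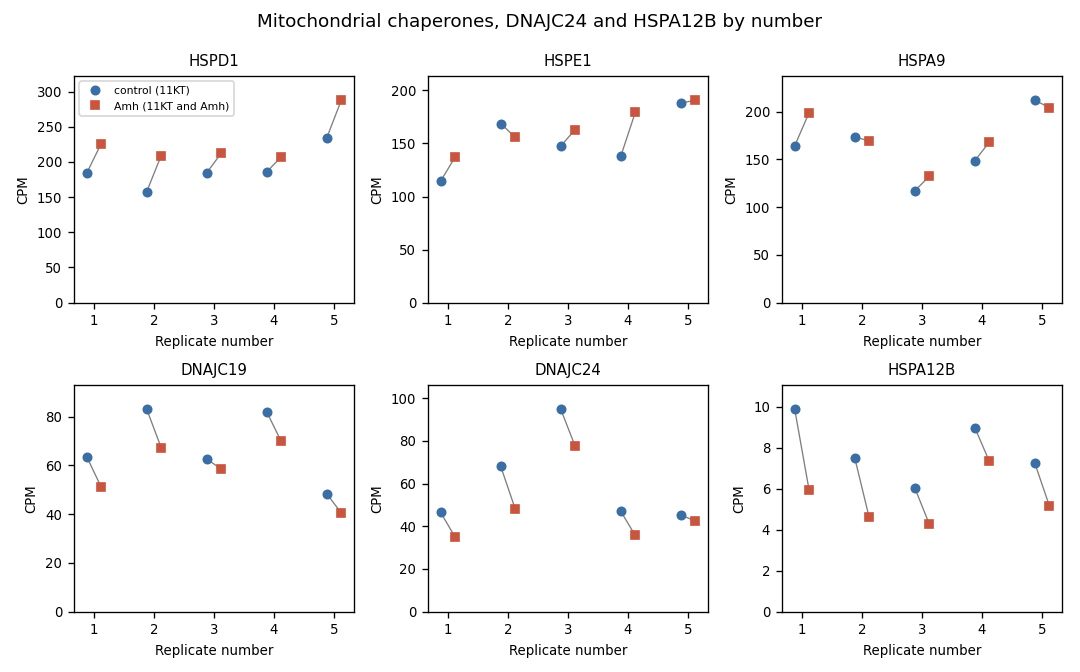
Level in CPM (vertical axis, from 0) of HSPD1, HSPE1, HSPA9, DNAJC19, DNAJC24 and HSPA12B by replicate number (horizontal axis), with control as blue circles, Amh as red squares and a grey line joining the 2 libraries of a number. HSPD1 lies higher with Amh at all 5 numbers, and DNAJC19, DNAJC24 and HSPA12B lie lower with Amh at all 5.

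Among the DNAJ genes placed elsewhere, DNAJB13 belongs to the radial spokes of the sperm tail in mammals. It was read at 299, 276, 403, 234 and 263 CPM in the controls and 282, 245, 342, 219 and 223 CPM with Amh. The Amh library was lower in each pair, and number 3 was highest in both groups. The paired log2 fold change was -0.17 (SE 0.0684) and the adjusted p 0.524. The germ cell markers lay on the same side: 6 of 7 tested were below 0, with a median log2 fold change of -0.09, none of them at 0 counts, and their part in the DNAJB13 values was not tested. DNAJC27, a Ras-related protein with a J domain named after its values were seen, had 45.8, 97.9, 123, 61.3 and 96.8 CPM in the controls and 39.6, 82.3, 101, 67.7 and 78.8 CPM with Amh, higher than control only at number 4. The largest standard error of the paired fit belonged to the DNAJC5 copy ENSDARG00000042948, a synaptic vesicle J protein in mammals, with 1.26, 2.23, 2.91, 0.788 and 0.318 CPM in the controls, 3.06, 2.39, 1.31, 0.859 and 3.01 CPM with Amh and a paired log2 fold change of 0.62 (SE 0.446).

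Libraries of different number differed far more than the treatment groups. In the test of the replicate number with edgeR, 44 of the 75 kept genes, or 58.7%, had an adjusted p under 0.05, against 52.6% of all genes. The number accounted for a median of 80.7% of the variance of a kept gene and the group for 1.97%, beside 77.2% and 2.86% over all genes. These shares are not adjusted for the number of terms. The replicate number has more terms in the fit than the group, so it takes a larger share even without any effect. The labels do not say what a number stands for. By place, 26 of 41 cytosolic, 6 of 15 ER and 6 of 8 mitochondrial genes differed between numbers, and by family 10 of 13 cytosolic Hsp70 and Hsp110 genes, 9 of 13 cytosolic DNAJ genes and 2 of 7 CCT subunits. Whether these shares differ from each other was not tested.

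**Figure D3:**
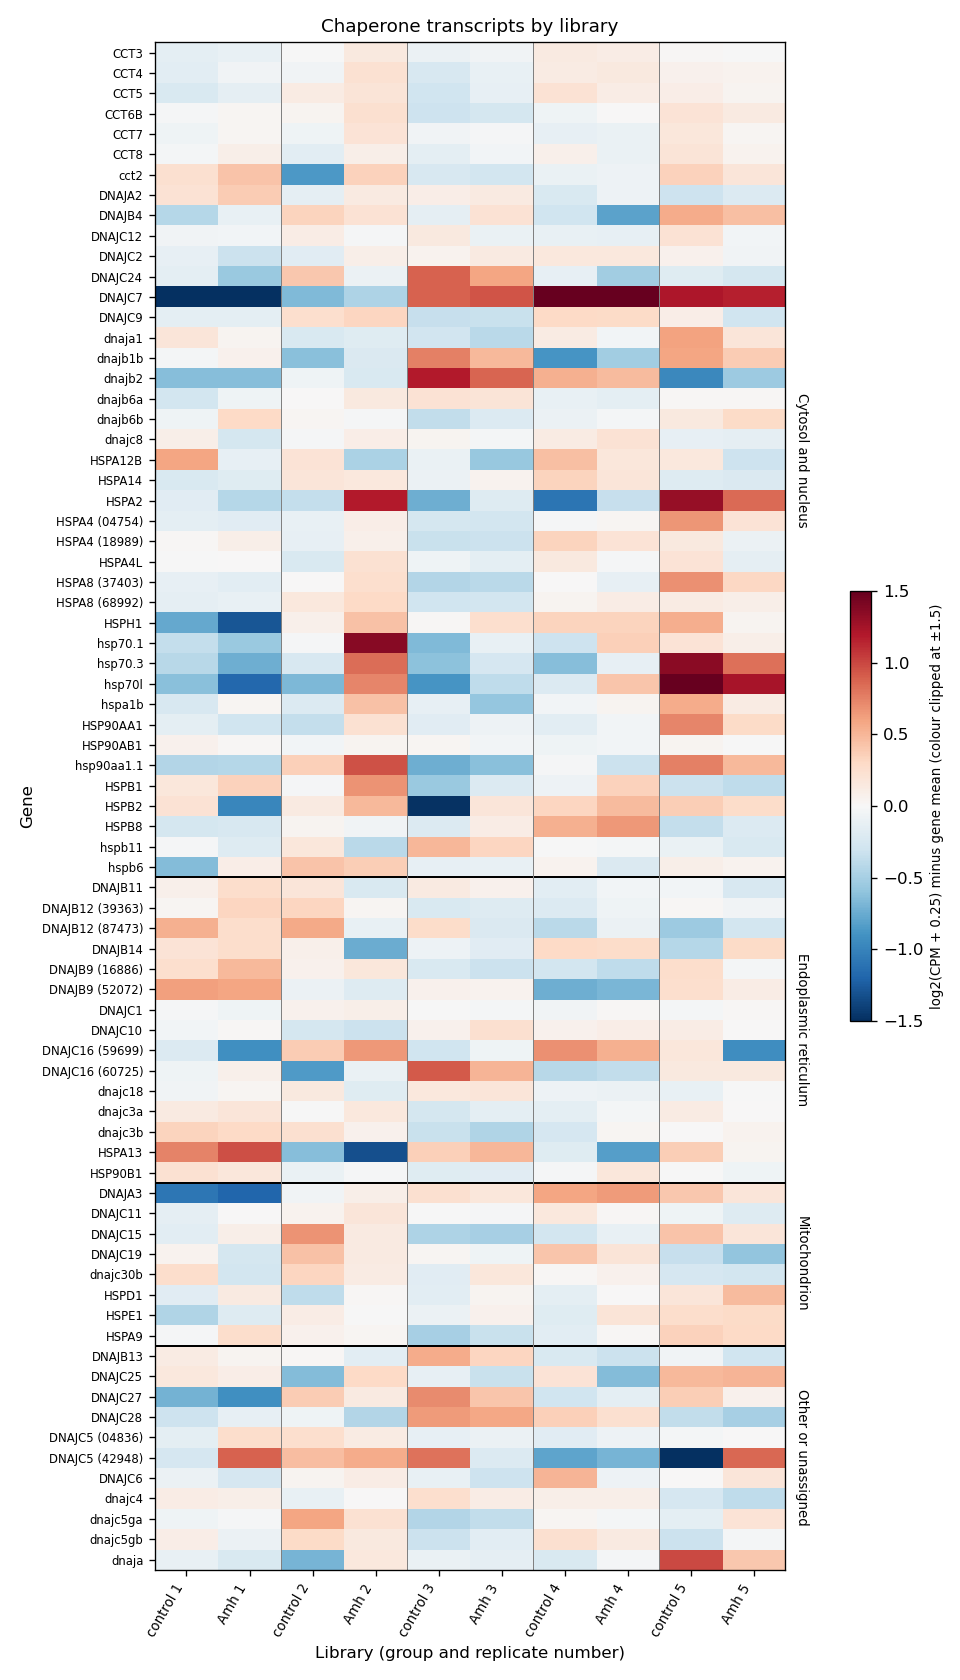
Log2 level of each of the 75 chaperone genes (rows, by compartment) in each of the 10 libraries (columns, control and Amh of a number side by side), as the difference from the gene's own mean (red higher, blue lower, colour clipped). Deviations of the 2 libraries of a number from their group means correlated at 0.662 to 0.824 over these genes at numbers 1, 3, 4 and 5 and at 0.305 at number 2, and hsp70l, hsp70.3 and HSPA2 are red in control 5, Amh 5 and Amh 2.

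The range over the 10 libraries was narrow in the CCT subunits, while in the Hsp70 genes it was about that of all genes. The highest library exceeded the lowest by a median of 1.38-fold over the CCT subunits, 2.26-fold over the cytosolic Hsp70 and Hsp110 genes, 1.61-fold over cytosolic DNAJ genes, 2.13-fold over cytosolic Hsp90 genes, 2.19-fold over small heat shock genes, 1.73-fold in the ER, 1.82-fold in the mitochondrion and 2.05-fold over the mitochondrial DNAJ genes alone. The median was 1.88-fold over all 75 kept genes and 2.23-fold over all genes tested. Over 2-fold were 36 of the 75, over 3-fold 17, and under 1.5-fold 22, limits at which all genes were not counted. The ranges were not adjusted for the level of a gene.

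The heat-inducible Hsp70 gene hsp70l (ENSDARG00000055723), whose promoter drives heat shock transgenes in zebrafish, was read at 84.9, 81.9, 70.9, 114 and 383 CPM in controls 1 to 5 and 57.9, 218, 101, 175 and 309 CPM in Amh libraries 1 to 5. Control 5, Amh 5 and Amh 2 were the 3 highest libraries, and Amh 1 the lowest, a range of 6.61-fold. The log2 fold change of Amh against control was 0.23 (SE 0.521). In that unpaired fit it was 0.97 without control 5, 0.13 without Amh 2 and -0.10 without Amh 5, each time with the other library of the number kept. The paired log2 fold change over all libraries was 0.33 (SE 0.192). The numbers differed with an adjusted p of 5.71e-05.

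hsp70.3, a member of an hsp70 cluster with hsp70.1 and hsp70.2 in the GRCz12tu annotation, was read at 43.7, 49.2, 37.9, 37.3 and 149.7 CPM in the controls and 35.0, 104, 48.7, 53.7 and 103 CPM with Amh. Its high libraries were those of hsp70l, with an adjusted p of 0.000126 between numbers. The log2 fold change was 0.11 (SE 0.426). It was 0.71 without control 5, and -0.08 both without Amh 2 and without Amh 5, again unpaired. The paired log2 fold change was 0.20 (SE 0.167). Reads of such close copies may be shared or lost in counting, so values of single hsp70 genes are uncertain. hsp70.1 was read at 17.1, 21.8, 13.9, 17.8 and 25.6 CPM in the controls and 15.0, 57.2, 20.4, 28.4 and 23.5 CPM with Amh. Amh 2 was the highest library by far. The unpaired log2 fold change of 0.58 (SE 0.317), the largest of the 75, was 0.18 without Amh 2 and 0.71 without control 5. In the paired edgeR fit it was 0.46 (SE 0.175), with an adjusted p of 0.479.

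The gene given the name HSPA2 (ENSDARG00000092362, named after its values were seen) had 34.6, 30.3, 23.4, 18.1 and 96.9 CPM in the controls and 29.0, 89.2, 34.0, 30.6 and 70.6 CPM with Amh. Control 5, Amh 2 and Amh 5 stood above the other 7 libraries, and the numbers differed with an adjusted p of 0.000483. Its log2 fold change was 0.31 (SE 0.462). Unpaired, it was 0.93 without control 5, 0.01 without Amh 2 and 0.16 without Amh 5. The paired log2 fold change was 0.39 (SE 0.204). For hsp90aa1.1, the Hsp90 form that folds muscle myosin in zebrafish, the controls gave 24.7, 43.0, 20.1, 33.2 and 56.6 CPM and the Amh libraries 24.9, 65.3, 21.7, 26.9 and 47.2 CPM. Here too the 3 highest libraries were Amh 2, control 5 and Amh 5. The unpaired log2 fold change of 0.06 (SE 0.343) was 0.30 without control 5, -0.24 without Amh 2 and -0.04 without Amh 5. In the paired fit it was 0.03 (SE 0.116).

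In all, 11 of the 75 kept genes, or 14.7%, had control 5, Amh 5 and Amh 2 as their 3 highest libraries, beside 1.9% of all genes tested. This count was made after the values were seen, so it is a description with no test. Of the 11, HSPA2, hspa1b and DNAJC25 are outside the rule for named genes. The 11 were hsp70l, hsp70.3, HSPA2, hspa1b, 1 copy each of HSPA4 and HSPA8, HSP90AA1, hsp90aa1.1, CCT6B, DNAJC25 and dnaja. They were 6 of 13 cytosolic Hsp70 and Hsp110 genes and 2 of 3 cytosolic Hsp90 genes, and 0 of 15 ER and 0 of 8 mitochondrial genes. With 1.9% of all genes as background, counts of 0 in lists this small do not set the ER or mitochondrion apart. The order of libraries was taken from the hsp70 genes' own values, and close hsp70 copies may share reads, so the 6 are not independent. Pairs 2 and 5 differed in sign for hsp70l and HSP90AA1: hsp70l had a log2 ratio of Amh to control of 1.41 in pair 2 and -0.31 in pair 5, and HSP90AA1 0.59 and -0.45.

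**Figure D4:**
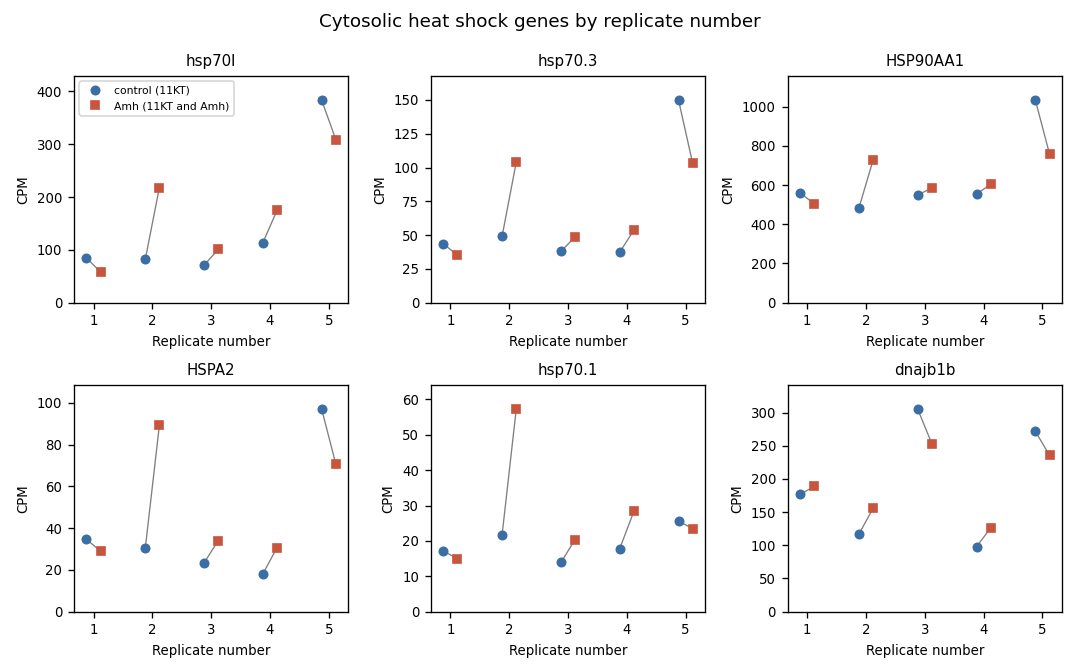
Level in CPM (vertical axis, from 0) of hsp70l, hsp70.3, HSP90AA1, HSPA2, hsp70.1 and dnajb1b by replicate number (horizontal axis), with control as blue circles, Amh as red squares and a grey line joining the 2 libraries of a number. In hsp70l, hsp70.3, HSP90AA1 and HSPA2 the control exceeds Amh at number 5 and Amh exceeds control at number 2, while dnajb1b is highest at number 3.

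dnajb1b, the Hsp40 partner of inducible Hsp70, followed another order. It was read at 177, 117, 305, 98.2 and 272 CPM in the controls and 189, 156, 253, 126 and 236 CPM with Amh, highest at number 3 in both groups and next highest at number 5, with an adjusted p of 1.41e-05 between numbers. Of the genes outside the naming rule, the heat shock factor hsf1 had a log2 fold change between the groups of -0.13 (SE 0.255) and HSF2 of -0.14 (SE 0.228). The summed immediate early genes, which mark recent stimulation or handling of tissue, ran from 228 to 350.2 CPM in the controls and from 230.2 to 397 CPM with Amh, all 7 tested having a log2 fold change above 0, with a median of 0.13. They were highest in number 1, where hsp70l was low in Amh 1. Next came Amh 5 (336 CPM), control 5 (332 CPM) and Amh 2 (323 CPM), the libraries with the highest hsp70l. The part of the immediate early genes in the heat shock values was not tested.

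The widest range of all belonged to DNAJC7, a J protein that binds both Hsp70 and Hsp90. It was read at 1.70, 13.4, 39.5, 61.3 and 49.4 CPM in the controls and 2.93, 15.4, 41.3, 65.8 and 48.1 CPM with Amh, a 38.6-fold range. At numbers 2 to 5 both libraries lay close together, at number 1 their log2 ratio was 0.72, and number 1 was lowest and number 4 highest. The numbers differed with an adjusted p of 1.71e-10. Between the groups its log2 fold change was 0.07 (SE 0.788) unpaired and 0.12 (SE 0.0989) paired.

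Other J proteins followed orders of their own. dnajb2, a J protein with ubiquitin-binding motifs, had 13.3, 19.9, 47.8, 30.3 and 10.5 CPM in the controls and 13.2, 17.7, 38.3, 29.1 and 14.1 CPM with Amh, highest at number 3 and low at numbers 1 and 5 (adjusted p = 1.52e-06 between numbers, edgeR). DNAJA3, the main J partner of mitochondrial HSPA9, had 11.9, 24.5, 30.3, 38.5 and 33.8 CPM in the controls and 11.0, 27.2, 28.8, 39.9 and 29.0 CPM with Amh, lowest at number 1 and highest at number 4. HSPA13, an Hsp70 of the ER with no peptide-binding domain, had 19.6, 7.38, 14.9, 10.2 and 15.0 CPM in the controls and 22.9, 4.51, 16.4, 6.41 and 11.9 CPM with Amh, highest at number 1 and lowest at number 2. The ER J protein DNAJC1 stayed within 1.11-fold, at 119, 126, 119, 116 and 117 CPM in the controls and 115, 128, 118, 122 and 122 CPM with Amh, with an adjusted p of 0.836 between numbers. dnajb2, HSPA13 and DNAJC1 are named after their values were seen.

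**Figure D5:**
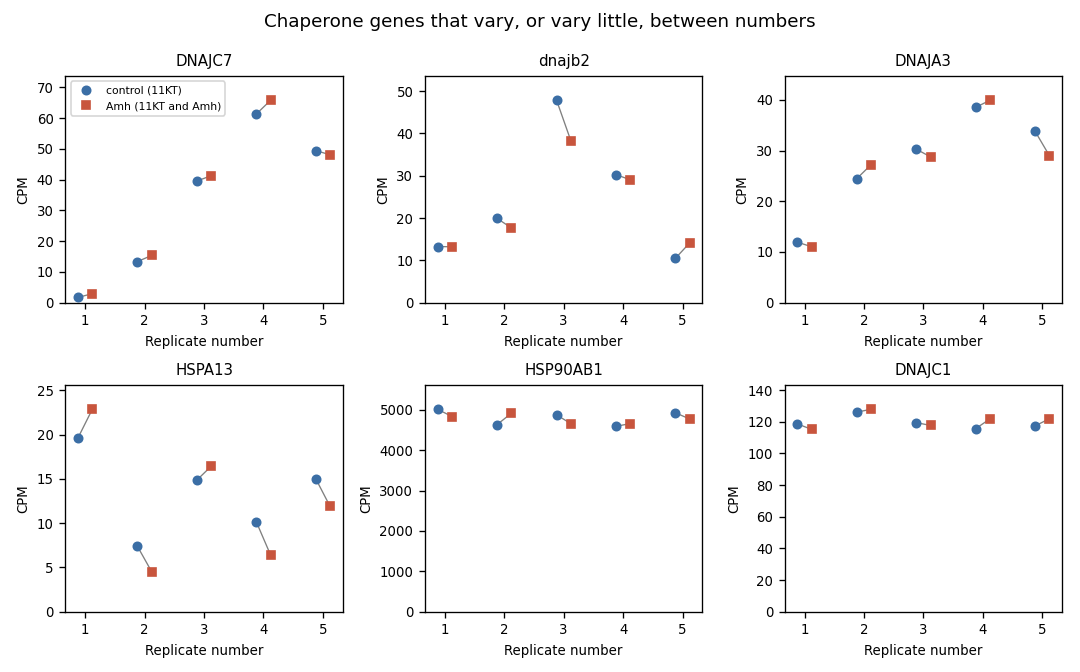
Level in CPM (vertical axis, from 0) of DNAJC7, dnajb2, DNAJA3, HSPA13, HSP90AB1 and DNAJC1 by replicate number (horizontal axis), with control as blue circles, Amh as red squares and a grey line joining the 2 libraries of a number. DNAJC7 runs from 1.70 CPM in control 1 to 65.8 CPM in Amh 4, while HSP90AB1 and DNAJC1 stay nearly level.

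Other genes of the same pathways were described from lists that left the named chaperones out. Of 28 tested heat shock factors and cytosolic co-chaperones, 0 passed in either fit, 12 had an unpaired log2 fold change above 0, and the median was -0.01. FKBP5, a steroid receptor co-chaperone, had 0.32 (SE 0.106) (adjusted p = 0.415) and PPID, a cyclophilin of the Hsp90 complex, -0.20 (SE 0.0789) (adjusted p = 0.492) in the paired edgeR fit, and BAG3 had 0.22 (SE 0.214) unpaired. Of 21 tested genes of ER folding and the unfolded protein response, 0 passed, 16 were above 0 and the median was 0.04. Among these the lectin chaperone CANX (calnexin) was higher in 5 of 5 pairs at 0.23 (SE 0.0728), with an adjusted p of 0.403, and the transcription factor XBP1 had 0.09 (SE 0.164) unpaired. Of 16 tested mitochondrial chaperones and proteases, 0 passed, 8 were above 0, and the import receptor TOMM70 was higher in 5 of 5 pairs at 0.38 (SE 0.112), with an adjusted p of 0.371. TCP1, BAG3, FKBP5, PPID, CANX, XBP1 and TOMM70 are named after their values were seen.

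Cell type markers also varied between libraries. The Leydig cell markers summed to 37.5 to 340.1 CPM in the controls and 29.5 to 207 CPM with Amh, with 1 of 6 above 0 in log2 fold change and a median of -0.48. Sertoli cell markers summed to 1071 to 1746 CPM and 1393 to 2331 CPM, with 7 of 8 above 0 and a median of 0.30. Markers of macrophages and leukocytes (251 to 427 CPM in the controls, 179 to 304 with Amh, median -0.36, 1 of 9 above 0) and of erythrocytes (66.8 to 155 CPM and 46.8 to 117 CPM) lay lower with Amh. Of the 9 macrophage and leukocyte markers, cd74a passed in the paired edgeR fit, with a log2 fold change of -0.62 (SE 0.0831). Its adjusted p was 0.0296, and Amh was lower in 5 of 5 pairs. At an unadjusted p under 0.05 in that fit, 6 of the 9 were lower and 1 higher, against 4.88% and 3.84% of all genes. So were 4 of 6 Leydig and 3 of 5 erythrocyte markers, all lower. Of 8 Sertoli markers 5 were higher and 1 lower at that level, and of 7 germ cell markers 0 reached it. No other marker passed in either fit. In these lists 1 copy of MPEG1 was at 0 and hbaa1 was too low to be tested. Control 5 had the highest Leydig marker sum and the lowest Sertoli marker sum of the controls. Amh 2 had the second lowest sum of its group in both. The Sertoli sum was mostly gsdf, with a mean of 1008 CPM in the controls. With each of the 8 Sertoli markers centred on its own log2 mean, control 5 was not the lowest control. Its mean was -0.06, beside 0.27, -0.40, -0.40 and -0.11 in controls 1 to 4. The part of cell makeup in the chaperone values was not tested.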

How the data were processed

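RNA was sequenced from 10 testis cultures, 5 with 11KT and 5 with 11KT and Amh, from 2 µg of total RNA per library with a TruSeq kit, per the labels. The deposited values are raw read counts per Ensembl gene, 1 table per library, with no normalization. Zv9 is the build in the submitters' processing notes, which list HTSeq, DESeq, TopHat2 2.0.5, FastQC 0.10.1 and SAMtools 0.1.18 as tools. Their order, annotation release, counting mode and strand use were not given in the sources used here. Reads of close paralogues, the hsp70 genes among them, may therefore count for either copy or for neither. Gene names came from a reference name table, and neighbouring genes from the annotation of another assembly, GRCz12tu, whose coordinates were not used. Of the 75 kept genes, 12 share a symbol with another and are told apart by gene ID.

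After filterByExpr, 19420 genes remained. They were scaled by TMM and compared with the quasi-likelihood test of edgeR 4.0.16 in R 4.3.3, with the group as single term, p adjusted by Benjamini-Hochberg over all genes tested and a threshold of 0.05. CPM use TMM library sizes, and SDs are over 5 libraries. Standard errors were obtained as the absolute log2 fold change over the root of the F statistic. That statistic uses a variance shared in part between genes, so an SE is not the spread of a gene's own libraries alone. The test was also run on counts simulated from a fit to these data, which cannot show that it holds for the real libraries. Library totals were 8455226 to 15448069 counts, which set counting error only.

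Whether the numbers pair the libraries was checked on deviations from the group means. Same-numbered libraries correlated at 0.490 to 0.784 and other libraries at -0.338 to 0.130, so for all 10 libraries the best match was the other library of that number. Over the 75 kept genes alone the same-numbered correlation was 0.305 to 0.824, lowest at number 2. With the number as a block, the biological coefficient of variation went from 31.7% to 11.9%. The block, other scalings and filters, DESeq2 1.42.0, limma-voom (limma 3.58.1), reads thinned to 1 depth and leaving out each library or pair were run as alternatives. Single libraries were left out of the unpaired fit, so the other library of that number stayed in, and pairs were left out of the block fit.

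The members, lists, compartments and tests were chosen with earlier results of these data known. Genes are named if past the threshold in either fit, if main chaperones of a compartment, if among the 2 with the smallest unpaired p of a compartment, or among the 3 with the widest range over the 10 libraries. Genes outside this rule are marked as such where they are described. No set test was used.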

Additional observations from a re-analysis of the deposited data

Results flagged for a closer look

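In 9 of 106 groups of 5 libraries (a named gene, or other value, in 1 group), 1 library lay far from the other 4 by Dixon's ratio at the critical value of 0.71. Chance flags about 1 group in 20 where groups are independent and not picked by value. Some genes here were named for their range or after their values were seen, and genes vary together, so the 9 cannot be set against that rate. Control 5 was the library in 8 of the 9. There hsp70l stood at 383 CPM, beside 70.9 to 114 in the other controls, hsp70.3 at 149.7 CPM beside 37.3 to 49.2, HSPA2 at 96.9 CPM beside 18.1 to 34.6, and hspa1b (named after its values were seen) at 8.90 CPM beside 5.02 to 5.81. In the same library 1 copy of HSPA4 (ENSDARG00000004754) stood at 439 CPM beside 231 to 274, HSP90AA1 at 1033 CPM beside 484 to 560.1, CCT7 at 418 CPM beside 342 to 361, and dnaja at 81.5 CPM beside 25.2 to 38.1. The Amh library of the same number was not flagged for these genes, with hsp70l at 309 CPM and HSP90AA1 at 758 CPM in Amh 5. The ratio uses the gap to the nearest value, and Amh 2 was also high for these 2 genes, at 218 and 727 CPM. With 2 high libraries the ratio can miss both, so the missing flag does not set Amh 5 apart from control 5. The remaining group was HSPD1 in the Amh libraries, where Amh 5 stood at 288 CPM beside 207 to 226 in the others, and control 5 was likewise the highest control.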

How the results depend on the processing

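The count of kept chaperone genes called between Amh and control was 0 under every alternative run. Over all genes it was 0 in the unpaired edgeR fit (131 at an unadjusted p under 0.05, and 0 by DESeq2 and limma-voom). With the replicate block it was 4 in edgeR, 25 in DESeq2, 8 in limma-voom, 8 with reads thinned to 1 depth and 3 with RLE scaling. Leaving out 1 library or pair gave 0 to 229, the highest being the block fit without pair 2. Among the chaperones and the listed pathway and marker genes the block changed 1 call, that of the marker cd74a. Genes that differ between numbers were 10221, and 6775 to 11828 when 1 number was left out, with 28 to 52 of the 75 kept genes beside 44, in each case lowest without number 3 (6775 and 28) and highest without number 2. The median log2 fold change ran from -0.02 to 0.09 in the cytosol, -0.06 to 0.03 in the ER and -0.05 to 0.05 in the mitochondrion over all alternatives. Of 50 named genes, none called, 3 changed sign under the block, 1 under RLE or upper-quartile scaling, 3 under limma-voom and 5 to 12 when 1 library was left out. Without control 5 the unpaired log2 fold change was 0.12 for the HSPA4 copy ENSDARG00000004754 and 0.32 for dnaja. Without pair 3 in the block fit it was 1.11 for the DNAJC5 copy ENSDARG00000042948. hsp70.1 had 0.21 in the block fit without pair 2. The causes were not tested. Depth limits genes near 1 CPM, such as HSPB2 and that DNAJC5 copy.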
